A study of Mus musculus with 8 samples.

Results

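The genes of the proteins that imatinib is known to bind, together with Bcr, were examined in cells sorted as leukemic stem cells (LSCs) from mice with chronic myeloid leukemia (CML). The 10 genes were chosen by name, from what is known of the drug, though with earlier results of these data known, and all 10 are among the 15576 genes of the deposited table: Abl1, Abl2, Bcr, Kit, Csf1r, Pdgfra, Pdgfrb, Ddr1, Ddr2 and Nqo2. Imatinib occupies the ATP pocket of an inactive form of a small group of tyrosine kinases. It was developed against ABL1, whose fusion to BCR makes the kinase that drives CML, and it also binds the ABL1 paralog ABL2, the receptors KIT, CSF1R, PDGFRA and PDGFRB, and the collagen receptors DDR1 and DDR2. NQO2, a quinone reductase, is its best known target that is not a kinase. In bone marrow, KIT with its ligand stem cell factor keeps stem and progenitor cells alive, and CSF1R carries the signal that makes monocytes and macrophages. These data measure RNA and hold no reading of kinase activity or of drug binding.

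4 libraries came from untreated CML mice and 4 from CML mice given imatinib (CML-TKI). All 8 carried the same alleles, a BCR-ABL transgene and SCL-tTA, on a C57BL/6 background, so the untreated controls were leukemic too. SCL-tTA is expressed in blood stem and progenitor cells and switches the transgene on there once tetracycline is withdrawn. The label of the CML-TKI samples gives 400 mg/kg imatinib for 4 weeks, and the treatment protocol gives gavage on alternate days over 30 days. The study's legend for these RNA-seq data gives a lower dose than the label, so the dose is uncertain. The labels give bone marrow cells sorted as lineage-negative, Sca1+, cKit+, Flt3-, CD150- and CD48+. The study's figure legends instead give LSCs as CD48- and CD150+. Each definition was the same for the treated and untreated groups. KIT protein was therefore itself part of the sort, and every library came from cells gated as KIT-positive. Nothing in the labels says that the libraries came from separate mice, so the p-values measure the spread between these samples, which may be technical. 1 CML column is numbered 5, which matches none of the labels, and its library is named CML 5 here.

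The totals were 4939644 to 8620101 counts in untreated and 1041552 to 5104268 counts in treated libraries. Levels are given as CPM, counts scaled to a fixed library total. A floor of 3 counts came to 0.406 to 0.576 CPM in CML and 0.566 to 3.27 CPM in CML-TKI, and values near it are at the limit of the depth. These limits cover counting error only. Libraries of the treated group were less alike (edgeR's coefficient of biological variation was 68.6%) than those of CML (28.1%). On the first principal component (52.5% of the variance) the CML libraries fell at -74.4 to -69.3, CML-TKI 1 at -19.2 and the other treated libraries at 70.1 to 118.8. CML-TKI 3 was the shallowest library and held 36790 CPM of erythroid marker genes, against at most 890.6 CPM in the other 7. The defining genes of the sort did not all follow the labelled gate. Slamf1, which encodes CD150, was between 28.8 and 37.5 CPM in CML and between 0.616 and 6.53 CPM in CML-TKI (log2 fold change -3.42, edgeR adjusted p = 0.00797), and Cd48 was between 3.84 and 6.36 CPM in CML and between 39.6 and 177 CPM in CML-TKI (log2 fold change 4.35, edgeR adjusted p = 8.70e-04). Ly6a, which encodes Sca1, was between 33.0 and 38.2 CPM in CML and at 44.0, 9.54, 8.71 and 1.55 CPM in CML-TKI 1 to 4 (log2 fold change -1.12, edgeR adjusted p = 0.373), low in 3 of 4 treated libraries although the gate was Sca1+. At the RNA level the CML libraries were thus Slamf1-high and Cd48-low and the CML-TKI libraries the reverse, although the labels give 1 gate for both.

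The comparison of CML-TKI with CML asks which of the drug's target genes differed in cells sorted as LSCs after treatment. 9 of the 10 genes had enough counts to be tested, and 2 passed the threshold of an adjusted p under 0.05 (edgeR quasi-likelihood test with Benjamini-Hochberg adjustment over all genes tested). Csf1r was higher in CML-TKI by 107-fold and Kit was lower by 3.78-fold. Abl1, Abl2, Bcr, Pdgfra, Pdgfrb, Ddr2 and Nqo2 did not pass, and Ddr1 was removed by the filter on low counts. Of all 11937 genes tested, 1220 passed (10.2%), 751 higher (6.29%) and 469 lower (3.93%), so 2 of 9 is a small count read against a background in which many genes differed. Without any scaling beyond totals that leave out Rn45s, a ribosomal RNA gene holding 9.23% to 38.3% of the counts, the split over all genes was 601 higher and 585 lower, and the same 2 target genes passed together with Abl1. The libraries of the groups did not overlap for 3 of the 9 genes tested (Abl1, Kit and Csf1r), against 23.4% of all genes tested. In bulk RNA a lower level in each cell and fewer cells that carry the RNA cannot be told apart.

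**Figure D1:**
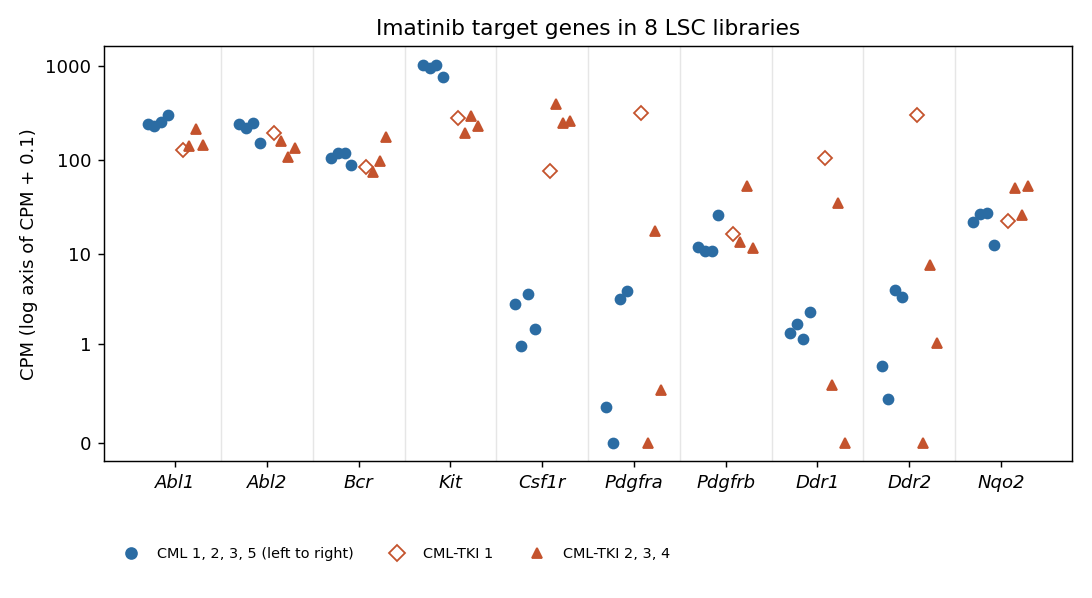
CPM of the 10 genes in each library, on a log axis of CPM plus 0.1, with CML libraries as circles and CML-TKI libraries as triangles, CML-TKI 1 as an open diamond. Kit sits between 759 and 1017 CPM in CML and below 289 CPM in CML-TKI. Csf1r lies below 4 CPM in CML and above 75 CPM in CML-TKI. The Pdgfra and Ddr2 values of CML-TKI 1 stand far above the rest. Ddr1 is highest in CML-TKI 1 (105 CPM) and next in CML-TKI 3 (34.8 CPM).

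Levels were compared between genes as CPM per kilobase of the longest transcript matched to RefSeq. In CML the order was Kit at 178 ± 22.7 CPM per kilobase (SD, n = 4), Abl1 at 40.1 ± 4.62, Abl2 at 21.1 ± 4.40, Bcr at 15.5 ± 2.07, Nqo2 at 5.69 ± 1.75 and Pdgfrb at 2.71 ± 1.36 CPM per kilobase. Csf1r (0.578), Ddr1 (0.431), Pdgfra (0.269) and Ddr2 (0.247 CPM per kilobase) came last, and neighbours in that order differed by less than the larger SD of the pair. Kit RNA was thus the most abundant target RNA of untreated LSCs by a wide margin, and Abl2 stood above Bcr by little more than its own SD. In CML-TKI the order began with Csf1r at 62.8 ± 33.2 CPM per kilobase, followed by Kit at 47.1 ± 8.37, Abl1 at 24.5 ± 6.02, Bcr at 15.7 ± 6.66 and Abl2 at 14.6 ± 3.61. Csf1r and Kit did not differ beyond their spread in CML-TKI, nor did Bcr and Abl2. With lengths taken over all exons of a gene, Abl2 (13.7) stood above Abl1 (13.4) and Bcr (13.1 CPM per kilobase) in CML-TKI. These margins were far inside their spread, and Csf1r and Kit kept the first places. Nqo2 stood at 9.84 ± 4.09 CPM per kilobase and Pdgfrb at 4.30 ± 3.59. The means of Pdgfra and Ddr2 were set by CML-TKI 1, which also made up most of the Ddr1 mean.

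ABL1 is a nonreceptor tyrosine kinase that moves between nucleus and cytoplasm and acts in the DNA damage response, and ABL2 is its paralog with an actin-binding tail. Abl1 (GRCm38 chr2:31688244-31807093, plus strand) was at 240, 230, 249.8 and 296 CPM in CML 1, 2, 3 and 5. In CML-TKI 1 to 4 it was at 127, 139, 211 and 142 CPM. Every CML library was above every CML-TKI library, with CML-TKI 3, the shallowest at 194 Abl1 counts, closest to CML. The log2 fold change was -0.72 (SE 0.22, 95% interval -1.21 to -0.23), which did not pass the threshold (edgeR adjusted p = 0.0678). It passed without CML-TKI 3 (log2 fold change -0.89, edgeR adjusted p = 0.0255), with library totals that leave out Rn45s (-0.87, edgeR adjusted p = 0.0296), in DESeq2 (-0.74, adjusted p = 0.0128) and in limma-voom (-0.69, adjusted p = 0.0162), so the Abl1 call depended on these settings and its direction did not. Leaving out Rn45s moved the median of all genes by -0.14, and relative to that median Abl1 stood at -0.73. Abl1 shares 94 of 11596 exon bases with an antisense gene, Gm13427, and whether counting used strand is not given in the sources used here.

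Abl2 (GRCm38 chr1:156558590-156649619, plus strand) was at 241, 218, 247.5 and 149.7 CPM in CML 1, 2, 3 and 5 and at 193, 159, 108 and 132 CPM in CML-TKI 1 to 4. CML 5 lay below CML-TKI 1 and 2, so the groups overlapped. The log2 fold change of -0.53 (SE 0.25) did not pass (edgeR adjusted p = 0.218), though it passed in limma-voom (-0.71, adjusted p = 0.0262) and, in an alternative chosen after seeing the data, without CML 5 and CML-TKI 1 (-0.81, edgeR adjusted p = 0.02). The log2 ratio of Abl1 to Abl2 within a library, which does not depend on library scaling, was 0.00, 0.07 and 0.01 in CML 1, 2 and 3 and 0.98 in CML 5, against -0.60, -0.19, 0.97 and 0.10 in CML-TKI 1 to 4. Counted as reads, with no correction for length, the pair was thus nearly equal in CML 1, 2 and 3, and CML 5 and CML-TKI 3 held the most Abl1 reads for each Abl2 read. The mean ratio was 0.27 ± 0.48 in CML and 0.07 ± 0.66 in CML-TKI (SD, n = 4), a difference smaller than either SD.

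BCR, whose N-terminal part makes the fusion kinase form oligomers, is itself a serine kinase with a domain that acts on small GTPases. Bcr (GRCm38 chr10:75060560-75184923, plus strand) was at 104, 117, 117 and 87.1 CPM in CML and at 83.4, 74.5, 96.9 and 174 CPM in CML-TKI. The groups overlapped throughout, and CML-TKI 4 was the highest of all 8 libraries. The log2 fold change was 0.02 (SE 0.29, edgeR adjusted p = 0.981), with a 95% interval from -0.62 to 0.66. Relative to the median of all genes it was between 0.006 and 0.023 under all 5 scalings. The sign turned in 9 of 23 alternatives, and without CML-TKI 4 the log2 fold change was -0.33 (edgeR adjusted p = 0.396). Abr, the nearest relative of Bcr, was between 83.3 and 105 CPM in CML and between 107 and 217 CPM in CML-TKI, without overlap, at a log2 fold change of 0.75 (SE 0.24) that did not pass (edgeR adjusted p = 0.0814). Whether RNA of the BCR-ABL transgene was counted towards Bcr or Abl1 was not tested.

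Transcription factors with known motifs moved in the same comparison, and Abl1, Abl2 and Kit carry the highest target levels of untreated LSCs. The bases before a transcript start of each are therefore shown. They are from RefSeq on GRCm38.p6, from 250 bases before a transcript start up to that start or to the first annotated exon, 5′ to 3′ on the plus strand, at chr2:31759689-31759938 for Abl1, chr1:156558537-156558785 for Abl2 and chr5:75574737-75574915 for Kit. Capitals mark matches on either strand to the GATA core GATA, the E-box CANNTG, the ETS motif GAGGAA and the AP-1 motif TGANTCA. They also mark the GC box GGGCGG and the TATA box TATAAA, and no capitals of different motifs overlap. The shorter run GGAA alone was not searched.
Abl1: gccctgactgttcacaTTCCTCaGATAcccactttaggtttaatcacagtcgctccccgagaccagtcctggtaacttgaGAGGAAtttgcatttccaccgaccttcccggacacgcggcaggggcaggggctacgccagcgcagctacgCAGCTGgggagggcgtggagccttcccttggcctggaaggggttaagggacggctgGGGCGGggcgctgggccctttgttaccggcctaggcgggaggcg
Abl2: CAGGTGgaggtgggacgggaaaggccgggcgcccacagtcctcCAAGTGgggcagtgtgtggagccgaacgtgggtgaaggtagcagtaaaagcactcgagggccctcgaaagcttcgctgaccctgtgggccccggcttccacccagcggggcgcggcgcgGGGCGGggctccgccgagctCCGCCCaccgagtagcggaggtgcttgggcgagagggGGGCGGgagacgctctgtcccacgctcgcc
Kit: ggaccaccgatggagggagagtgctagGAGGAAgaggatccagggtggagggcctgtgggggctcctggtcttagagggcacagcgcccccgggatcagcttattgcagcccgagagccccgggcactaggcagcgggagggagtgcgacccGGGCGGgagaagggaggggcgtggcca
The search covered the whole 250 bases before each start, of which 179 are printed for Kit and 249 for Abl2. The Abl1 window lies inside the gene span given above, before an internal start. The Abl2 window begins before the gene start given above and runs past it. The Kit window held 1 ETS motif and 1 GC box and no match to the other 4 motifs. Abl2 held 3 GC boxes and 2 E-boxes, and Abl1 held 2 ETS motifs and 1 each of the GC box, E-box and GATA core. Of 32851 such windows in the whole table, 53.6% held a GATA core, 66.2% an E-box and 32.7% a GC box. The share was 23.3% for the ETS motif, 12.4% for the TATA box and 6.7% for the AP-1 motif. Of the 8 target genes with a window, 6 held a GC box, 6 an E-box, 3 a GATA core and 2 an ETS motif. A TATA box was found in 1 (Ddr2) and an AP-1 motif in 0. A match is only a run of letters, and the absence of one says nothing of a factor acting elsewhere.

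KIT is the receptor for stem cell factor and the surface protein by which these cells were sorted. Kit (GRCm38 chr5:75574987-75656722, plus strand) was at 1002, 952, 1017 and 759 CPM in CML 1, 2, 3 and 5 and at 276, 193, 288.5 and 229.8 CPM in CML-TKI 1 to 4. The lowest CML library, CML 5, was still far above the highest CML-TKI library, and within CML-TKI the 4 libraries lay close together, including CML-TKI 1. These values rest on 4964 to 7403 counts per library in CML and on 265 to 1463 in CML-TKI. Kit fell by 1.92 on the log2 scale (SE 0.21, 95% interval -2.39 to -1.44, edgeR adjusted p = 8.70e-04), from 932 ± 119 to 246.8 ± 43.9 CPM (SD, n = 4). It passed in each of 23 alternative settings, with log2 fold changes between -2.06 and -1.82. Summed hematopoietic stem cell markers moved with it, from between 1521 and 1802 CPM in CML to between 69.3 and 511 CPM in CML-TKI. Of 11 tested, 5 were lower, among them Hlf at 81.5, 4.93, 7.62 and 4.39 CPM in CML-TKI 1 to 4. Mecom was at 0 in CML-TKI 2 and 4 but did not pass (edgeR adjusted p = 0.109). The part of these markers in the Kit result was not tested. The 6 mast cell and basophil markers in the table summed to at most 6.72 CPM in CML. In CML-TKI they summed to between 43.6 and 1225 CPM, and the 2 that were tested were both higher. In CML-TKI 3 most of the sum was Hdc (39.2 CPM), and Fcer1a, Ms4a2 and Prss34 had 0 counts. In CML-TKI 4 most of it was Prss34 (834.8 CPM). The part of this list in the Kit result was not tested either.

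CSF1R binds CSF1 and interleukin 34 and is the lineage receptor of monocytes and macrophages. Csf1r (GRCm38 chr18:61105572-61131139, plus strand) had 21, 5, 19 and 11 counts in CML libraries 1, 2, 3 and 5, or 2.84, 0.959, 3.65 and 1.5 CPM. In CML-TKI libraries 1 to 4 it had 400, 1262, 227 and 1009 counts, or 75.5, 388.5, 247 and 261 CPM. The gap between the groups was wide, and CML-TKI 1 was the lowest of the treated libraries. Csf1r rose by 6.75 on the log2 scale (SE 0.62, 95% interval 5.37 to 8.13, edgeR adjusted p = 5.49e-04). It passed in each of 23 alternative settings, with log2 fold changes between 6.29 and 7.05. Macrophage and monocyte markers rose together with it, 13 of 14 passing the threshold and none being lower, from summed levels between 282 and 365 CPM in CML to between 1513 and 7472 CPM in CML-TKI. F13a1 stood at 301, 1844, 1372 and 886 CPM in the CML-TKI libraries against at most 6.49 CPM in CML, and Cx3cr1, at 0 in CML 1 and CML 5, reached 70.8 CPM in CML-TKI 4. 14 of 15 granulocyte markers rose as well, from summed levels of at most 272 CPM to between 1512 and 8665 CPM. For each of these lists the lowest treated library was CML-TKI 1, as for Csf1r, and their part in the Csf1r result was not tested.

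**Figure D2:**
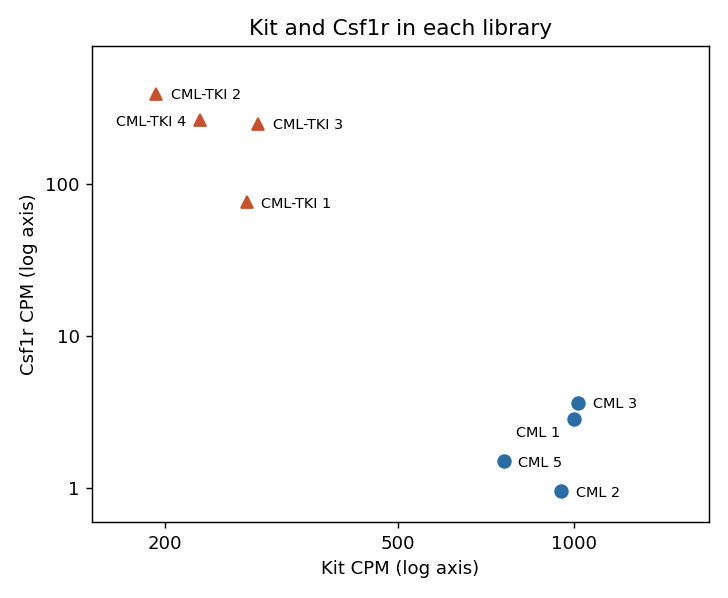
Kit CPM (horizontal log axis) against Csf1r CPM (vertical log axis) in each library, CML as circles and CML-TKI as triangles. The CML libraries lie together at high Kit and low Csf1r, and the CML-TKI libraries at lower Kit and Csf1r of 75.5 to 388.5 CPM.

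Kit and Csf1r belong to the same receptor family (class III, with Pdgfra and Pdgfrb), and their ratio within a library does not depend on library scaling. The log2 ratio of Csf1r to Kit was -8.27, -9.44, -7.97 and -8.63 in CML 1, 2, 3 and 5 and -1.87, 1.01, -0.22 and 0.18 in CML-TKI 1 to 4. Every CML library therefore held far more Kit than Csf1r reads, while CML-TKI 2 and 4 held more Csf1r than Kit and CML-TKI 3 nearly as much. The means were -8.57 ± 0.64 and -0.23 ± 1.21 (SD, n = 4), a difference of 8.35 on the log2 scale that was many times either SD. With a prior count of 0.5 or 5 in place of 2 the difference was 8.57 or 8.0.

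**Figure D3:**
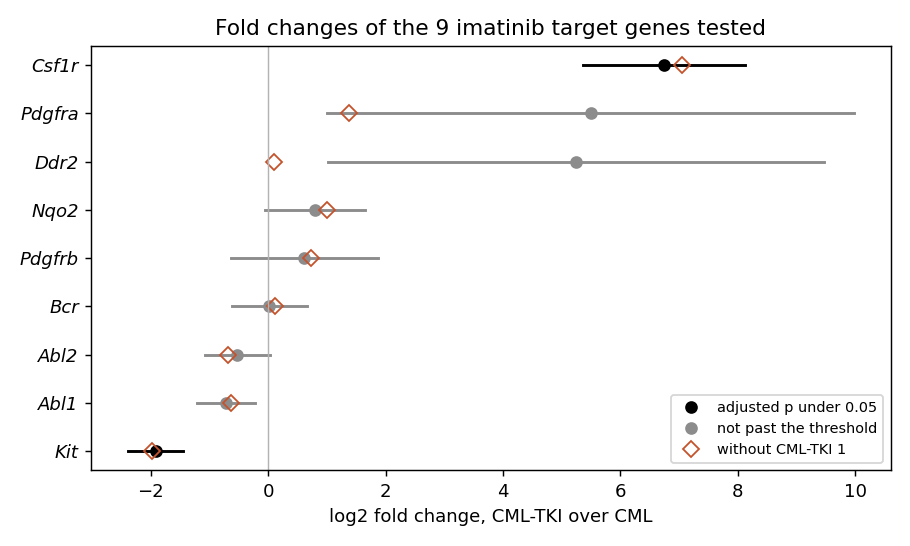
Log2 fold change of the 9 genes tested, CML-TKI over CML, with 95% intervals, filled black where the edgeR adjusted p was under 0.05, and with the value without CML-TKI 1 as an open diamond. Csf1r (6.75) and Kit (-1.92) hold their place without CML-TKI 1, while Pdgfra moves from 5.49 to 1.38 and Ddr2 from 5.24 to 0.10.

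The PDGF receptor alpha and the discoidin domain receptors, which bind fibrillar collagen, had at most 32 counts in every library but CML-TKI 1. Pdgfra (GRCm38 chr5:75151322-75198206, plus strand, 376780 bases before Kit on the same strand) had 1, 0, 17 and 29 counts in CML 1, 2, 3 and 5 and 1674, 0, 16 and 1 counts in CML-TKI 1 to 4. Ddr2 (GRCm38 chr1:169972307-170110836, minus strand) had 4, 1, 21 and 25 counts in CML and 1582, 0, 7 and 4 counts in CML-TKI. Both genes were thus abundant in CML-TKI 1 alone, at 316 and 298.5 CPM, and the other 7 libraries reached at most 17.4 and 7.62 CPM. The log2 fold changes of 5.49 (SE 2.01, edgeR adjusted p = 0.117) for Pdgfra and 5.24 (SE 1.89, edgeR adjusted p = 0.113) for Ddr2 did not pass. Without CML-TKI 1 they were 1.38 (edgeR adjusted p = 0.633) and 0.10 (edgeR adjusted p = 0.97), so these fold changes were set by 1 library. Although Pdgfra and Kit lie side by side, Kit was at a like level in CML-TKI 1 and CML-TKI 3 (276 and 288.5 CPM) whereas Pdgfra was at 316 and 17.4 CPM.

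Ddr1 (GRCm38 chr17:35681567-35704741, minus strand) had 10, 9, 6 and 17 counts in CML and 557, 1, 32 and 0 counts in CML-TKI, or 105, 0.308, 34.8 and 0 CPM in the treated libraries. It too was highest in CML-TKI 1, and the 0 in CML-TKI 4 allows up to 0.775 CPM. Col2a1, a fibrillar collagen that activates the discoidin receptors, had 4767 counts (899.5 CPM) in CML-TKI 1 and at most 9 in any other library, and Pdgfa, a ligand of PDGFRA, had 98 counts there and at most 5 elsewhere. Other collagens of the ligand list did not follow Col2a1, Col1a1 being at 48.7 CPM in CML-TKI 1 and 393 CPM in CML 3. Counting genes of at least 50 CPM in 1 library and at most 3 counts in each of the other 7, CML-TKI 1 had 37, CML-TKI 3 had 4 and the remaining libraries had 0. The 37 include Sox10 (1223 counts), a transcription factor of neural crest cells and glia, and Acan (742) and Ncan (729), which encode proteoglycans, each with 0 counts in the other 7 libraries. These 3 examples were picked with their values in view. The 4 of CML-TKI 3 include Ddx3y, a gene of the Y chromosome, with 51 counts there and 0 in the other 7 libraries. Whether the libraries differed in the sex of the mice was not tested. The mesenchymal stromal markers other than the target genes did not single out CML-TKI 1, with 72.8 CPM against 23.8 to 849.7 CPM in CML and 2.33 to 211 CPM in the other CML-TKI libraries. The part of these genes in the Pdgfra, Ddr1 and Ddr2 values was not tested.

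**Figure D4:**
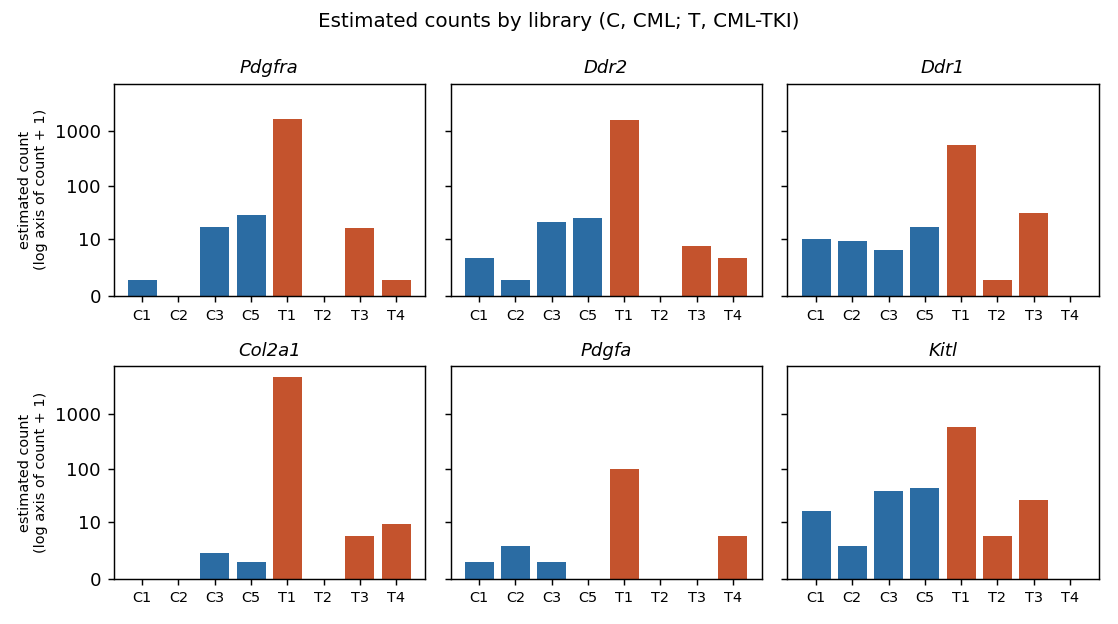
Estimated counts of Pdgfra, Ddr2, Ddr1 and of the ligand genes Col2a1, Pdgfa and Kitl in each library, on a log axis of count plus 1, with CML bars (C1, C2, C3, C5) in blue and CML-TKI bars (T1 to T4) in red. The T1 bar is the tallest in all 6 panels, with 1674 counts of Pdgfra and 4767 of Col2a1.

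PDGFRB, the receptor of pericytes and stroma for PDGF-BB, lies 20504 bases before Csf1r. Pdgfrb (GRCm38 chr18:61045127-61085067, plus strand) was at 11.6, 10.7, 10.6 and 25.7 CPM in CML and at 16.2, 13.2, 52.3 and 11.4 CPM in CML-TKI. CML-TKI 3 and CML 5 were the high libraries of their groups, and the groups overlapped. The log2 fold change of 0.62 (SE 0.56) did not pass (edgeR adjusted p = 0.537) and was -0.10 without CML-TKI 3. Unlike Pdgfra, Pdgfrb was not raised in CML-TKI 1, and unlike Csf1r, its neighbour, it did not pass in any alternative.

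Nqo2 (GRCm38 chr13:33964655-33988465, plus strand) was at 21.7, 26.3, 27.1 and 12.4 CPM in CML and at 22.5, 50.5, 26.1 and 52.2 CPM in CML-TKI. CML-TKI 2 and 4 were above all CML libraries, and CML-TKI 1 and 3 were among them. The log2 fold change of 0.80 (SE 0.38) did not pass (edgeR adjusted p = 0.224). Nqo2 lies inside Serpinb6a on the other strand, and 762 of its 4042 annotated exon bases are also exon of that gene, so without strand reads from those bases cannot be told apart. Its paralog Nqo1 was between 5.28 and 9.56 CPM in CML and between 0 and 11.1 CPM in CML-TKI, with a log2 fold change of -1.05 (edgeR adjusted p = 0.585).

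Among the nearest relatives of these kinases, 2 of 13 tested were higher and 1 was lower, with a median log2 fold change of -0.09 beside 0.00 over all genes tested. The counts of this and the following lists are to be read beside the 10.2% of all genes that passed. Fes, a cytoplasmic tyrosine kinase of myeloid cells, rose from between 33.8 and 41.4 CPM to between 69.8 and 251.5 CPM (log2 fold change 2.22, SE 0.35, edgeR adjusted p = 0.00457). Lyn, the main SRC-family kinase of myeloid cells, rose by 1.26 (SE 0.34, edgeR adjusted p = 0.0435), a call that held in 1 of 8 fits that leave out 1 library and in 1 of 4 other scalings. Flt4, a VEGF receptor, fell from between 4.6 and 64.1 CPM to at most 1.51 CPM (log2 fold change -5.98, edgeR adjusted p = 0.0151), a call that held in 7 of 8 fits that leave out 1 library and not without CML 5 (edgeR adjusted p = 0.0531). Flt3, the fifth class III receptor, which was gated as negative, was at 15.6 to 17.1 CPM in CML and 7.70 to 62.8 CPM in CML-TKI, with a log2 fold change of 0.66 that did not pass (edgeR adjusted p = 0.522). Of this receptor family, Kit and Csf1r were therefore past the threshold, in opposite directions, and Flt3, Pdgfra and Pdgfrb were not.

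Of 11 ligand genes tested for the receptors, 2 were lower and none was higher, with a median log2 fold change of -2.37 over a list made mostly of collagen and PDGF genes. Pdgfb, the ligand of PDGFRB, was between 22.4 and 44.3 CPM in CML and between 0 and 5.43 CPM in CML-TKI (log2 fold change -3.81, SE 0.81, edgeR adjusted p = 0.0166). Col4a2, a basement membrane collagen, was lower by 3.25 on the log2 scale (edgeR adjusted p = 0.046). Of 8 fits that leave out 1 library, the Pdgfb call held in 5 and the Col4a2 call in 2, and Col4a2 passed in 3 of 4 other scalings. Endothelial markers moved the same way, from summed levels between 1193 and 1546 CPM in CML to between 69 and 331 CPM in CML-TKI, with 4 of 9 tested lower (Cdh5, Tie1, Egfl7 and Flt4 itself). Megakaryocyte markers did so too, from between 1254 and 1558 CPM to between 50.2 and 614 CPM, with 3 of 7 lower. Vwf is in both lists and holds much of both CML sums, at a mean of 776 CPM. The part of either list in the Pdgfb, Col4a2 and Flt4 results was not tested. Kitl and Csf1, ligand genes of the 2 receptors that passed, did not pass themselves, and Il34 had too few counts to be tested. Kitl, which encodes stem cell factor, had 16, 3, 39 and 43 counts in CML and 565, 5, 26 and 0 counts in CML-TKI, again with CML-TKI 1 highest (log2 fold change 3.09, edgeR adjusted p = 0.217). Csf1 was between 9.78 and 16.5 CPM in CML and between 6.53 and 19.4 CPM in CML-TKI (log2 fold change -0.12, edgeR adjusted p = 0.887).

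Downstream of KIT and CSF1R, 1 of 25 adaptor and effector genes tested was higher and none was lower, with a median log2 fold change of -0.21. That gene was Tyrobp, which encodes the adaptor DAP12 of myeloid cells, and it rose from between 0.767 and 2.05 CPM to between 17.6 and 66.5 CPM (log2 fold change 4.92, SE 0.55, edgeR adjusted p = 8.70e-04). The other 24 did not pass and had log2 fold changes between -1.39 and 0.90, with Grb2 at -0.47, Shc1 at 0.06, Pik3ca at 0.24, Akt1 at -0.23 and Jak2 at -0.33. Of 19 negative regulators tested, 2 were higher and 2 were lower. Dok3 rose by 4.11 (SE 0.53, edgeR adjusted p = 0.00166) while its relative Dok2 fell by 1.85 on the log2 scale (SE 0.42, edgeR adjusted p = 0.0228), both encoding adaptors that restrain kinase signalling. Adam17, a protease that sheds the CSF1R and KIT ectodomains, rose by 1.21 (SE 0.27, edgeR adjusted p = 0.0211), and Sla2, an adaptor that directs CBL to receptors, fell by 3.44 on the log2 scale (SE 0.75, edgeR adjusted p = 0.0183). Of the 4, Dok3 passed in each of the 8 fits that leave out 1 library, Sla2 in 4, and Dok2 and Adam17 in 3.

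Of 26 tested partners and substrates of ABL1 and ABL2, 3 were higher and none was lower, a share near the 10.2% of all genes, with a median log2 fold change of 0.17. Pstpip2, a regulator of actin in macrophages, rose by 2.90 (SE 0.49, edgeR adjusted p = 0.00618), Nedd9, a scaffold of focal adhesions, by 2.14 (SE 0.32, edgeR adjusted p = 0.0036), and Evl, an actin elongation factor, by 2.0 (SE 0.54, edgeR adjusted p = 0.0461). The Evl call held in 2 of 8 fits that leave out 1 library and in 2 of 4 other scalings, and the other calls held in all of them. Crkl, the adaptor whose phosphorylation is read as a measure of BCR-ABL activity, was between 132 and 163 CPM in CML and between 87.1 and 166 CPM in CML-TKI, with a log2 fold change of -0.22 that did not pass. Of 7 genes tested for imatinib transport and metabolism, Slc22a4, a carnitine and ergothioneine transporter, was higher by 3.76 (SE 0.61, edgeR adjusted p = 0.00499) and Abcc1, an efflux pump, was lower by 0.97 on the log2 scale (SE 0.26, edgeR adjusted p = 0.0433). The Abcc1 call held in 3 of 8 fits that leave out 1 library and in 3 of 4 other scalings, and the Slc22a4 call in all of them. The efflux pump genes Abcb1b and Abcg2 had log2 fold changes of -0.96 and -1.29 and did not pass.

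Among the pathway lists, transcription factors known to control Kit or Csf1r had the most calls, 5 higher and 6 lower of 19 tested, beside 10.2% of all genes. The higher genes are factors of the myeloid lineages. Irf8 rose from between 2.69 and 8.74 CPM to between 70.6 and 354 CPM (log2 fold change 5.26, SE 0.57, edgeR adjusted p = 8.70e-04), Cebpa by 3.83 (SE 0.54, edgeR adjusted p = 0.00264), Klf4 by 3.35 (SE 0.44, edgeR adjusted p = 0.00181), Cebpb by 2.79 (SE 0.54, edgeR adjusted p = 0.011) and Spi1, which encodes PU.1, by 1.83 (SE 0.38, edgeR adjusted p = 0.0156). PU.1 is a known activator of Csf1r in monocytes.

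Of the 6 lower genes, Lmo2, Gata2 and Tal1 encode proteins that work in a complex in stem and mast cells and are known activators of Kit. Lmo2 fell from between 619.5 and 751 CPM to between 109 and 157 CPM (log2 fold change -2.31, SE 0.20, edgeR adjusted p = 5.41e-04), Gata2 by 2.32 (SE 0.36, edgeR adjusted p = 0.00418) and Tal1 by 1.76 on the log2 scale (SE 0.42, edgeR adjusted p = 0.0263). The AP-1 genes Jun and Fos fell by 2.79 and 2.28 on the log2 scale (edgeR adjusted p = 0.00195 and 0.0118), and Fli1, an ETS factor, by 1.05 (edgeR adjusted p = 0.0148). The other 8 did not pass, with log2 fold changes between -1.32 (Gata1) and 1.57 (Ets1). Among them, Myb was at -0.21, Runx1 at -0.27 and Sp1 at -0.04. Each of the 11 kept its sign and its call under all 4 other scalings. On leaving out 1 library, Tal1 passed in 3, Spi1 in 5 and Fli1 in 6 of 8 fits. With CML 1, 2 and 3 summed to 1 library, 5 genes of all pathway lists together passed, so not all of the 11 did. Gata2 and Klf4 are also in the stem cell and monocyte marker lists, which moved in the same directions, and their part in this result was not tested.

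**Figure D5:**
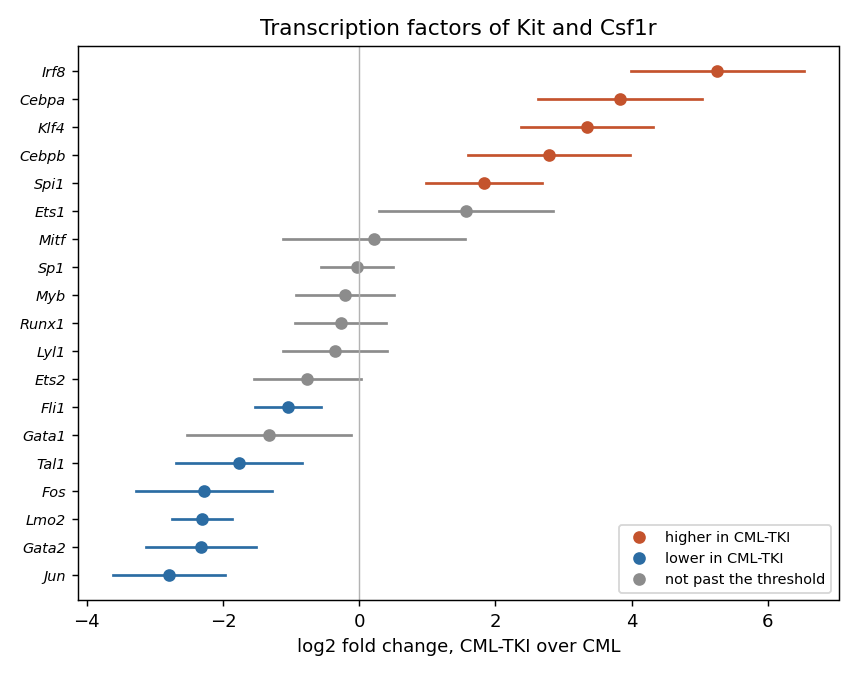
Log2 fold change with 95% interval of the 19 tested transcription factors known to control Kit or Csf1r, red where higher and blue where lower in CML-TKI at an edgeR adjusted p under 0.05. Irf8 (5.26) heads the 5 higher genes and Jun (-2.79) the 6 lower ones.

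Over the 8 libraries, the genes whose log2 CPM was most like that of Kit among 9294 compared were Erg (Pearson r = 0.994), an ETS factor of stem cells, St3gal1 (0.985) and Slc9a8 (0.978). Among those most like Csf1r were F13a1 (0.998), a coagulation factor subunit made by monocytes, and Pira1 (0.995), which has close copies and is uncertain for that reason. These correlations are descriptive, since 2 groups of 4 libraries set most of the spread and the libraries share their depth across genes.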

How the data were processed

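Total RNA of the 8 LSC samples was made into Nextera XT libraries. Per the study's methods and processing notes, the authors used STAR 2.6.1d on paired reads with mm10, then Partek 8.0 with RefSeq transcripts for quantification. The deposited table holds their estimated counts per gene, without normalization. They were rounded here, since some were not whole.

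edgeR 4.0.16 in R 4.3.3 was run with TMM factors, filterByExpr (minimum count 10, minimum total 15) and the robust quasi-likelihood test over all 8 libraries, with no covariate, Benjamini-Hochberg adjustment over 11937 genes and a threshold of 0.05. CPM are TMM-scaled, and log2 CPM and ratios use a prior count of 2. The script was tested on simulated counts. DESeq2 1.42.0, limma-voom (limma 3.58.1) with quality weights, and other scalings, filters and sets of libraries were alternatives. Members and gene lists were chosen with earlier results of these data known. All 10 members are named, and in each pathway list the 6 genes past the threshold with the smallest adjusted p, with Flt3, Abr, Nqo1, Kitl and Csf1 always given. The 5 further transcription factors past the threshold are given too. Any further gene was picked with its values in view. The 3 most alike genes needed a mean log2 CPM of 3, and 1 of those for Csf1r is not reported here. Gene positions are GENCODE M21 and RefSeq on GRCm38, and 8 of 10 members had a promoter window. Protein sequences, K562 and ChIP-seq data were not analysed here.

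CML 1, 2 and 3 differed beyond binomial noise in 24.5% to 26.6% of genes, less than other pairs of the CML group (69.0% to 70.8%). edgeR's coefficient of biological variation was 11% over these libraries, against 28.1% over all of CML. They were counted as 3 libraries, and the SDs and p-values rest on that. Whether they are repeats of the same sample was not tested. With them summed to 1 library, 122 genes passed, Kit and Csf1r among them.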

Additional observations from a re-analysis of the deposited data

Results flagged for a closer look

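In CML, the highest Pdgfrb level was that of CML 5, at a log2 CPM of 4.71 against 3.46 to 3.59 in CML 1, 2 and 3. It was singled out because its gap to the next library was 0.892 of the range of the group. The log2 ratio of Abl1 to Abl2 was also highest in CML 5, at 0.98 against 0.00 to 0.07 in the other CML libraries, a gap of 0.921 of the range. Both values come from the CML library whose column number no label gives, which also held the largest share of Rn45s. Of 24 values looked at in this way (10 genes and 2 ratios in 2 groups) these 2 stood out, where chance gives about 1.2.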

How the results depend on the processing

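Kit and Csf1r kept their direction and passed in all 23 alternatives (adjusted p up to 0.0385 and 0.0411). The number of target genes past the threshold was 2 or 3, except in limma-voom, where it was 4 with Abl1 and Abl2. Leaving out single libraries gave 2 or 3. The replicate block over the 6 libraries that share a number left 2 target genes, 9 genes of the pathway lists and 193 genes in all, against 2, 18 and 589 for the same 6 libraries without it (this last fit was chosen after seeing the data). Same-numbered samples deviated together by -0.04, 0.10 and 0.09 (correlation over genes), and not every library correlated best with its own number. These few small values cannot show whether the numbers pair the samples. The 1220 genes called in all became 2157 in DESeq2, 2544 in limma-voom, 1957 at an adjusted p under 0.1, 122 with CML 1, 2 and 3 summed to 1 library, 543 with all libraries thinned to the smallest, 2362 without CML 5 and CML-TKI 1, and between 505 (without CML 1) and 2504 (without CML-TKI 1) on leaving out single libraries, with 552, 570 and 806 without CML 2, 3 and 5. The 26 pathway genes became 41 in DESeq2, 47 in limma-voom, 41 at an adjusted p under 0.1, 5 with CML 1, 2 and 3 summed, 13 thinned, 44 without CML 5 and CML-TKI 1, and between 15 (without CML 1) and 46 (without CML-TKI 1) without single libraries, with 16, 16 and 17 without CML 2, 3 and 5. The log2 fold change of Bcr turned to -0.001 with RLE factors, -0.12 with totals without Rn45s, -0.081 with upper quartile factors, -0.018 with no filter, -0.001 in DESeq2, -0.40 with the replicate block and -0.40 in the same libraries without it, and ranged from -0.33 to 0.15 without single libraries, as did Pdgfrb from -0.10 to 1.03. The median of all genes shifted by -0.14 without Rn45s, -0.10 with upper quartile factors, -0.11 in limma-voom and -0.13 under the block, and relative to it Bcr was at 0.02 in the first and second of these. Where a smaller number of libraries or counts entered, fewer genes can pass. The cause of the other shifts was not tested. With 1041552 counts, CML-TKI 3 reaches 3 counts of a gene only at 3.27 CPM.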
